A study of Homo sapiens with 12 samples.

Results

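The 10 genes described here code for the proteins that detect a DNA double-strand break and mark the chromatin around it. They are the sensors MRE11, RAD50 and NBN, the kinase ATM with the acetyltransferase KAT5, the scaffold MDC1, the ubiquitin ligases RNF8 and RNF168, and the mediators TP53BP1 and RIF1. They were taken as a list of names and not by a cut on their values, though with earlier results of these data known. All 10 were measured among the 33458 genes tested. Each was read from 1 transcript cluster, the array's unit for a locus, which carried that gene symbol alone. Where a gene had several such clusters, as NBN and RIF1 did, the brightest was used.

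RNP-IP recovers the RNA-binding protein HuR (ELAVL1) from a lysate along with the transcripts attached to it. The study asked which DNA repair transcripts HuR holds in MiaPaCa-2 cells, an established human pancreatic ductal adenocarcinoma (PDAC) line, under drug stress. Cells had received DMSO, 10 µM olaparib, a PARP inhibitor, or 1 µM gemcitabine, a nucleoside analog, and both drugs were given for 16 h. Cytoplasmic lysates were precipitated with an antibody against HuR (HuR-IP) or with nonspecific IgG (IgG-IP), and the RNA was run on Clariom D arrays. This gave 6 groups of 2 arrays, namely HuR-IP and IgG-IP from DMSO, olaparib and gemcitabine cells, all from the same cell line and the same cell fraction. Labels number the arrays of a group 1 and 2 and call them biological replicates, and do not give their preparation, so p-values measure the spread between these arrays only.

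When both strands of DNA break, the MRE11-RAD50-NBN complex (MRN) binds the ends and recruits ATM, which KAT5 helps to activate by acetylation. ATM phosphorylates the histone variant H2AX, MDC1 docks on this mark, and RNF8 and then RNF168 attach ubiquitin to the surrounding chromatin. TP53BP1 (53BP1) reads the marked histones and brings in RIF1, which holds back the trimming of the ends that homologous recombination requires.

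Values are log2 signals as deposited, so a difference of 1 is a doubling, and each signal is relative to the rest of its array rather than an amount of RNA. The 12 arrays had median signals between 3.73 and 3.95. Antigenomic background features, which match no human sequence, had medians between 2.88 and 3.01 and 95th percentiles between 5.08 and 6.27. Among the markers of the labelled cell type, KRT18, VIM and KRT8 averaged 13.99, 12.44 and 10.07, whereas EPCAM averaged 3.29 and CDH1 3.46, close to the background. KRT18 (-2.90), VIM (-1.44) and the loading control GAPDH (-1.61) were lower in HuR-IP over the 3 treatments (limma's adjusted p = 0.00118, 0.0494 and 0.0400), each on 6 of 6 HuR-IP arrays against their own IgG-IP arrays. The nuclear RNA MALAT1 (-1.71) and the actin mRNA ACTB (4.47) did not pass (adjusted p = 0.0949 and 0.141). Of 8 markers of other cell types, 7 were measured. None of them passed the adjusted threshold between HuR-IP and IgG-IP, 6 averaged between 3.07 and 5.67, and the collagen gene COL1A1 averaged 9.45. Arrays within HuR-IP were unequal. Over 9139 genes with a mean signal above 6, the difference between same-numbered HuR-IP and IgG-IP arrays had an SD of 2.02 to 2.24 for the arrays numbered 1 and for olaparib number 2, but of 1.12 for DMSO number 2 and 1.20 for gemcitabine number 2. For some genes the value without these 2 HuR-IP arrays is also given. They were picked for lying close to IgG-IP, so leaving them out tends to widen the gap between the antibodies by construction. Such values are descriptions only. In RNA from a whole culture, fewer cells carrying a transcript and less of it per cell cannot be told apart.

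Over the 3 treatments, HuR-IP was below IgG-IP for 2 of the 10 genes at limma's adjusted p under 0.05, and above it for none, with 6 arrays of each antibody. The lower ones, after adjustment over all 33458 genes, were TP53BP1, at a 2.87-fold higher level in IgG-IP, and KAT5, whose signal lay inside the background range on 5 of 6 HuR-IP arrays. Of all genes tested, 7.51% were lower and 2.39% were higher in this comparison. RNF168 had the largest difference of the 10, 6.03-fold above IgG-IP, and it missed the adjusted threshold. With a block for the replicate number the counts were 1 higher, RNF168 (adjusted p = 0.00564), and 4 lower, with ATM and NBN added. In that model, 6.62% of all genes were higher and 11.6% lower. Both TP53BP1 and KAT5 belong to the genes that the study displayed from these arrays, so the direction they took is no independent evidence.

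The fold changes of the 10 genes lay mostly below 0. Their median log2 fold change was -0.73, with 9 negative values and 1 positive, against -0.07 over all genes and -0.57 over the 7114 protein-coding genes with a mean signal above 6. Of those 7114 brighter genes, 18.5% were lower in HuR-IP and 7.53% were higher. Among the 7 of the 10 that are as bright, TP53BP1 alone was lower. The sign of the smaller members depended on the scaling. Cyclic loess between the arrays gave a median of -0.15 with 3 positive values, quantile normalization -0.32 with 2, and centring each array on its brighter genes -0.28 with 3, while the median over all genes moved to 0.01, -0.00 and 0.38.

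**Figure D1:**
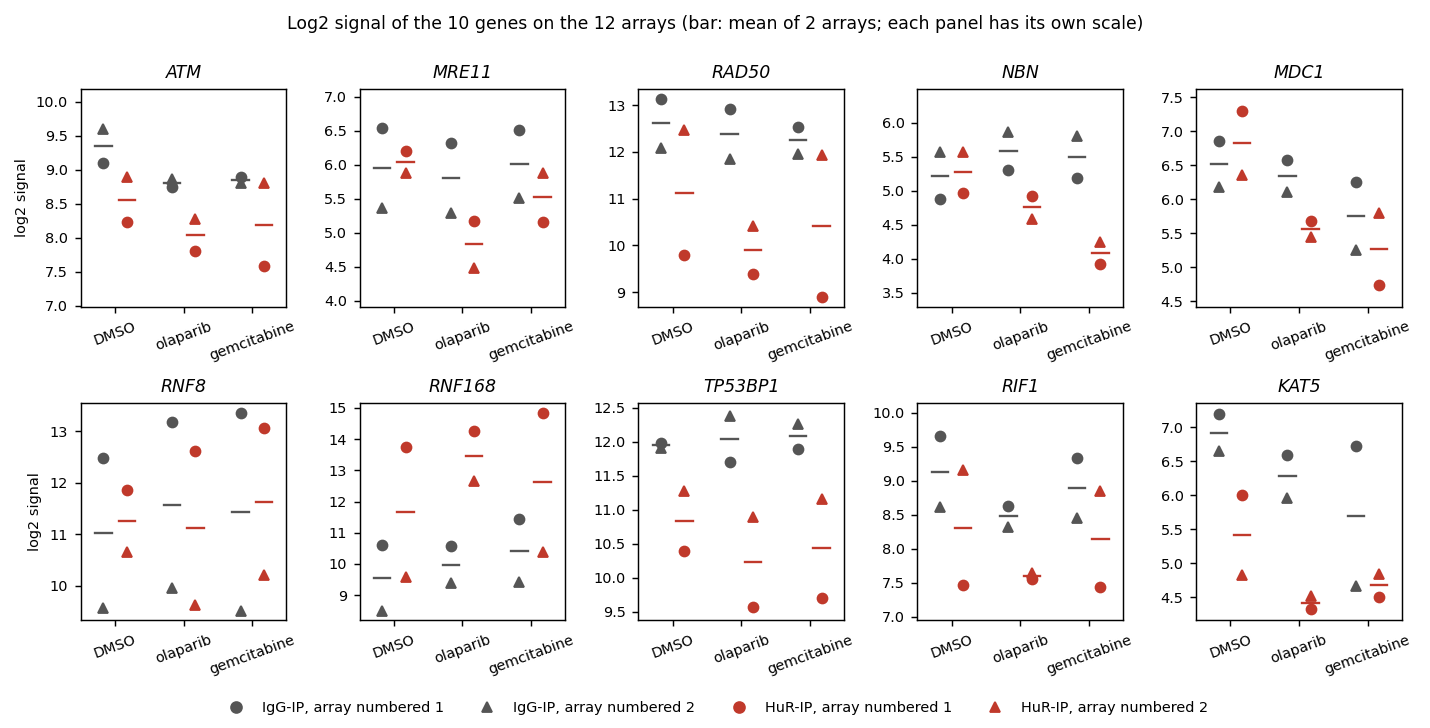
Log2 signal (y axis, a separate scale for each gene) of the 10 genes on the 12 arrays by treatment (x axis), with IgG-IP in grey, HuR-IP in red, circles for arrays numbered 1, triangles for arrays numbered 2 and bars for the mean of 2 arrays. All 6 HuR-IP arrays of TP53BP1 lie at or below 11.28 and all 6 IgG-IP arrays at or above 11.70, while RNF8 is split by array number on both antibodies.

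TP53BP1 codes for the mediator that reads the ubiquitin and methyl marks on histones next to a break. Its DMSO signals were 10.39 and 11.28 on the HuR-IP arrays numbered 1 and 2, and 11.98 and 11.91 on the IgG-IP arrays. In olaparib they were 9.57 and 10.89 against 11.70 and 12.37, and in gemcitabine 9.70 and 11.16 against 11.90 and 12.26. Every HuR-IP array was therefore below every IgG-IP array, a separation seen in 5.36% of all genes, while 8.15% were below IgG-IP in each treatment on its own. Within HuR-IP, the array numbered 1 was the lower of its group each time, by 0.89 to 1.46. The mean log2 fold change was -1.52 (SE 0.34, limma's adjusted p = 0.0278), and a block for the replicate number gave an adjusted p of 0.00255. By treatment, TP53BP1 stood at -1.11 (SE 0.59) with DMSO, at -1.81 with olaparib and at -1.65 with gemcitabine, with limma's adjusted p of 0.762, 0.154 and 0.353. With the block, olaparib passed (adjusted p = 0.0252). The call in the mean was lost with cyclic loess (-0.73, adjusted p = 0.268), with quantile normalization (adjusted p = 0.119) and with centring (adjusted p = 0.123), the sign being negative each time, and with a trended and robust prior (adjusted p = 0.0651). It was also lost when any of 9 single arrays was left out, with adjusted p between 0.0109 and 0.0769 over the 12 omissions.

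RIF1 codes for the effector that TP53BP1 brings to the break. DMSO gave 7.46 and 9.16 on the HuR-IP arrays against 9.66 and 8.61 on the IgG-IP arrays, olaparib 7.55 and 7.64 against 8.63 and 8.32, and gemcitabine 7.43 and 8.85 against 9.33 and 8.46. Both HuR-IP arrays were below both IgG-IP arrays in olaparib, whereas in DMSO and gemcitabine the HuR-IP array numbered 2 lay between the IgG-IP arrays. For this cluster the mean log2 fold change of -0.82 (SE 0.39) did not pass (limma's adjusted p = 0.240). It was -1.34 without the 2 HuR-IP arrays picked for lying close to IgG-IP, number 2 of DMSO and of gemcitabine. Other clusters of RIF1 did not repeat the value of -0.82. The second, dimmer one, with a mean signal of 6.41, was 0.37 higher in HuR-IP, and the third, with a mean signal of 4.25, differed by -0.07.

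KAT5, the TIP60 acetyltransferase that acts on ATM and on histones, was dim. DMSO arrays read 6.0 and 4.82 in HuR-IP and 7.19 and 6.65 in IgG-IP, olaparib arrays 4.32 and 4.51 against 6.59 and 5.96, and gemcitabine arrays 4.51 and 4.84 against 6.72 and 4.66. The groups were apart in DMSO and olaparib and overlapped in gemcitabine, where the IgG-IP array numbered 2 was as low as HuR-IP. Only 1 of 6 HuR-IP arrays, but 5 of 6 IgG-IP arrays, exceeded the 95th percentile of its own background features. The HuR-IP level of KAT5 is therefore known mainly as a value inside the background range. The mean log2 fold change was -1.46 (SE 0.38, limma's adjusted p = 0.0453), and it was -1.51, -1.86 and -1.02 under DMSO, olaparib and gemcitabine, none of which passed (adjusted p = 0.650, 0.181 and 0.664). The block gave an adjusted p of 0.0129 in the mean. Leaving out any of 10 single arrays lost the mean call, with adjusted p between 0.00892 and 0.120, as did leaving out the 2 HuR-IP arrays close to IgG-IP (-1.32, adjusted p = 0.0851).

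ATM, the kinase at the head of the pathway, read 8.23 and 8.89 in HuR-IP against 9.09 and 9.59 in IgG-IP from DMSO cells. In olaparib it read 7.80 and 8.28 against 8.74 and 8.86, and in gemcitabine 7.58 and 8.81 against 8.89 and 8.80. HuR-IP was the lower antibody on every array but gemcitabine number 2, which fell between its IgG-IP arrays. ATM thus averaged -0.73 on the log2 scale (SE 0.25, limma's adjusted p = 0.108), and the block moved it past the threshold (adjusted p = 0.0319). The omission of the 2 HuR-IP arrays picked for lying close to IgG-IP gave -1.05. Cyclic loess brought the difference to -0.04 and turned its sign in olaparib and gemcitabine, to 0.25 and 0.00434.

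The 3 MRN genes did not behave alike. RAD50, the ATPase that tethers the ends, was the brightest of them and had the lowest fold change of all 10 genes, whereas MRE11 and NBN lay close to the background.

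RAD50 read 9.79 and 12.46 in HuR-IP and 13.13 and 12.08 in IgG-IP from DMSO cells. It read 9.39 and 10.42 against 12.92 and 11.84 in olaparib, and 8.90 and 11.93 against 12.53 and 11.97 in gemcitabine. HuR-IP arrays numbered 1 were the lowest of their treatment each time, with differences of -3.63 to -3.35 from the same-numbered IgG-IP array, and olaparib number 2 differed by -1.42. In contrast, number 2 of DMSO differed by 0.38 and that of gemcitabine by -0.04. Over the treatments, the log2 fold change of -1.93 (SE 0.64) thus had a wide error and missed the threshold (limma's adjusted p = 0.102, with the block 0.0616). Without those 2 arrays it was -2.88, and in gemcitabine, where 1 HuR-IP array was then left, -3.35. Both arrays were picked for lying close to IgG-IP, so this widening was built into the choice. Testing only genes with a mean signal above 6 moved the mean over all 12 arrays past the threshold (adjusted p = 0.0428).

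NBN codes for the adaptor through which MRN reaches ATM. Signals in HuR-IP and IgG-IP were 4.97 and 5.57 against 4.87 and 5.57 in DMSO, 4.93 and 4.59 against 5.30 and 5.87 in olaparib, and 3.93 and 4.25 against 5.18 and 5.80 in gemcitabine. The antibodies overlapped in DMSO and were apart, with HuR-IP lower, under both drugs. No HuR-IP array and 2 of 6 IgG-IP arrays exceeded the 95th percentile of their background features, so these are differences at the background level. Averaged over treatments, the log2 fold change was -0.73 (SE 0.22, limma's adjusted p = 0.0765), and it passed with the block (adjusted p = 0.0230). In gemcitabine it was -1.40 (adjusted p = 0.178). A dimmer NBN cluster, with a mean signal of 3.93, differed by -0.79 in the mean but by -0.91 in DMSO, and the mean of the 2 clusters passed (adjusted p = 0.0261).

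MRE11, the nuclease of the complex, ranged from 4.49 to 6.21 in HuR-IP and from 5.29 to 6.54 in IgG-IP. The 2 antibodies overlapped in DMSO and gemcitabine, and HuR-IP was below IgG-IP in olaparib, at 5.18 and 4.49 against 6.32 and 5.29. Of the HuR-IP arrays 3 and of the IgG-IP arrays 4 exceeded the 95th percentile of the background. A mean log2 fold change of -0.46 (SE 0.32, 95% interval -1.20 to 0.28) did not pass (limma's adjusted p = 0.445).

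MDC1, the scaffold on phosphorylated H2AX, ranged from 4.75 to 7.30 in HuR-IP and from 5.25 to 6.85 in IgG-IP. The mean log2 fold change was -0.32 (SE 0.30, 95% interval -0.99 to 0.36, limma's adjusted p = 0.583), and it turned to 0.06 with cyclic loess and 0.13 with centring. In DMSO, HuR-IP stood at 7.30 and 6.36 against 6.85 and 6.18, and in olaparib at 5.68 and 5.45 against 6.58 and 6.11, below both IgG-IP arrays.

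The ubiquitin ligases RNF168 and RNF8 were among the brighter genes and varied with the array number. RNF168 codes for the ligase that spreads ubiquitin on histone H2A. Its HuR-IP signals were 13.73 and 9.59 in DMSO, against 10.61 and 8.51 in IgG-IP. In olaparib they were 14.26 and 12.67 against 10.57 and 9.38, and in gemcitabine 14.84 and 10.39 against 11.44 and 9.42. The array numbered 1 was the higher in all 6 groups, by 1.19 to 4.46, so that HuR-IP number 2 fell inside the IgG-IP range in DMSO and gemcitabine, and HuR-IP was wholly above IgG-IP in olaparib. Within same-numbered pairs the difference was positive in 6 of 6, from 0.97 to 3.69, as in 7.68% of all genes. Its mean log2 fold change was 2.59 (SE 1.00, 95% interval 0.31 to 4.87), at the 97.5 percentile of protein-coding genes, with limma's adjusted p = 0.153.

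When the replicate number was added as a block, the SE of RNF168 was 0.45 and it passed in the mean (adjusted p = 0.00564) and in olaparib (log2 fold change 3.49, adjusted p = 0.0305). RNF168 also passed in the mean with centring (adjusted p = 0.0313). It did not pass with cyclic loess (adjusted p = 0.0684), quantile normalization (0.0788), the trended and robust prior (0.0996) or genes above 6 only (0.0599). In 11 of 12 single omissions it did not pass either. Its value was 3.33 without gemcitabine HuR-IP number 2, and 4.03 without the 2 HuR-IP arrays picked for lying close to IgG-IP. In the model without a block, its values of 2.10 with DMSO, 3.49 with olaparib and 2.19 with gemcitabine did not pass (limma's adjusted p = 0.870, 0.338 and 0.729). Without gemcitabine HuR-IP number 1, the gemcitabine value was -0.04.

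RNF8, the ligase that acts before RNF168, showed no difference that could be resolved. DMSO arrays read 11.85 and 10.66 in HuR-IP and 12.48 and 9.56 in IgG-IP. Olaparib arrays read 12.63 and 9.63 against 13.19 and 9.95, and gemcitabine arrays 13.06 and 10.21 against 13.36 and 9.52. The antibodies overlapped in every treatment, while number 1 exceeded number 2 in all 6 groups, by 1.19 to 3.84. Averaged over the groups, this gap between array numbers was 2.84 for RNF8 and 2.59 for RNF168, and only 0.891% and 1.57% of protein-coding genes had a larger one. For RNF8 the mean log2 fold change was -0.00 (SE 1.02, limma's adjusted p = 0.999), with a 95% interval of -2.34 to 2.34 that narrowed to -0.71 to 0.70 with the block. Its sign was not fixed, since it stood at 0.79 with cyclic loess, 0.22 with quantile normalization and 0.45 with centring.

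**Figure D2:**
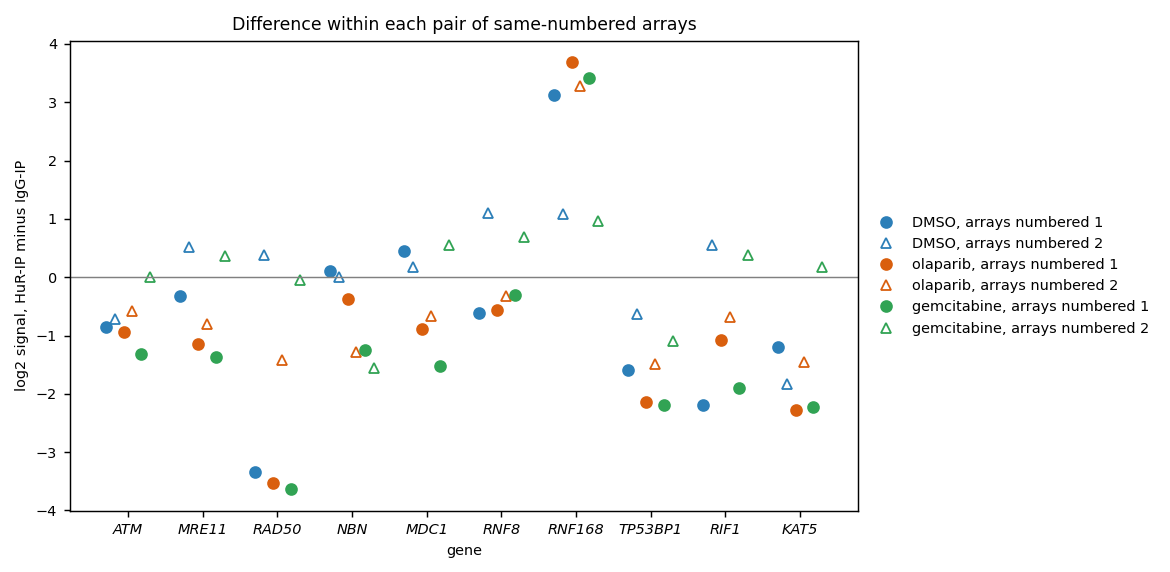
HuR-IP minus IgG-IP log2 signal (y axis) for each of the 10 genes (x axis) within the 6 pairs of same-numbered arrays, with filled circles for arrays numbered 1, open triangles for arrays numbered 2 and colours for treatments. RNF168 is positive and TP53BP1 negative in 6 of 6 pairs, and RAD50 lies between -3.63 and -3.35 in the pairs numbered 1 but at 0.38 and -0.04 in the pairs numbered 2 of DMSO and gemcitabine.

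Within same-numbered pairs, TP53BP1 was negative in 6 of 6, from -2.19 to -0.63, as were 12% of all genes. KAT5, RAD50 and ATM were negative in 5 of 6 pairs, NBN, MRE11, RIF1 and RNF8 in 4, and MDC1 in 3. The 10 genes also differed by array number as a group. Their median difference was -0.74 in DMSO and -1.44 in gemcitabine for the arrays numbered 1, but 0.28 and 0.27 for those numbered 2, while olaparib gave -1.01 and -0.74.

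The 6 HuR-IP arrays took exactly opposite orders for RNF168 and RAD50, a pair chosen after their values were seen. From gemcitabine number 1 through olaparib 1, DMSO 1, olaparib 2 and gemcitabine 2 to DMSO 2, RNF168 went from 14.84 to 9.59 and RAD50 from 8.90 to 12.46. Over the 6 IgG-IP arrays the pair did not run in opposite directions (Pearson r = 0.70, as a description). The order was not particular to this pair, since ATM took the same order as RAD50 on the HuR-IP arrays, from 7.58 to 8.89. Over the 6 HuR-IP arrays, Pearson r with RNF168 was -0.96 for ATM, -0.96 for RIF1 and -0.92 for TP53BP1. It was 0.74 for RNF8 and between -0.43 and -0.04 for NBN, MRE11, MDC1 and KAT5. The first 4 arrays of this order also lay furthest from IgG-IP over all brighter genes, with an SD from their IgG-IP mean of 2.02 to 2.25 against 1.23 and 1.08 in the last 2, and the part of this in the order was not tested. Among 7107 protein-coding genes, the 3 most like RNF168 over the 12 arrays were EIF2AK2 (Pearson r = 0.998), AGO1 (0.991) and FMR1 (0.990). Their HuR-IP to IgG-IP log2 fold changes of 2.36, 1.73 and 3.19 did not pass (limma's adjusted p = 0.159, 0.0996 and 0.125). With the block they did (adjusted p = 0.00437, 0.00535 and 0.00582). The 3 most like RAD50 were KDM5B (0.976), EPRS1 (0.972) and INO80 (0.972). Their values of -1.19, -1.83 and -1.69 did not pass (limma's adjusted p = 0.121, 0.0777 and 0.0795). EPRS1 and INO80 passed with the block (adjusted p = 0.0386 and 0.0456). These r values describe 12 arrays that share groups and array numbers.

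Within single treatments, none of the 10 genes passed the adjusted threshold in the limma model without a block. In olaparib, TP53BP1 and RNF168 passed with the block (adjusted p = 0.0252 and 0.0305), where 6.82% of all genes were lower and 3.18% higher. KAT5 passed when only the 4 olaparib arrays were modelled (0.0485), where 4.98% of all genes were lower and 2.15% higher. In the model without a block, fitted to all arrays, 0.478% of all genes were lower and 0.0209% higher in DMSO. In olaparib these shares were 3.04% and 0.433%, and in gemcitabine 0.977% and 0.0568%. At an unadjusted p under 0.05, KAT5 alone was below IgG-IP in DMSO (5.77% of all genes), TP53BP1 and KAT5 in olaparib (12.4%), and NBN and TP53BP1 in gemcitabine (7.53%). None of the 10 was above IgG-IP at that level, where 1.79%, 5.6% and 2.87% of all genes were. Olaparib separated the antibodies for most members. Both HuR-IP arrays were below both IgG-IP arrays for 8 of the 10 genes and above them for RNF168, against 30% and 20.4% of all genes, and RNF8 overlapped. In DMSO the HuR-IP arrays were below for ATM, TP53BP1 and KAT5 (23.9% of all genes), and in gemcitabine for RAD50, NBN and TP53BP1 (21.5%), with none of the 10 above (12.7% and 14.6%). Whether these counts differ between treatments was not tested, and the 2 HuR-IP arrays that lay closest to IgG-IP belong to DMSO and gemcitabine. By treatment, the 10 had median log2 fold changes of -0.37 (DMSO), -0.85 (olaparib) and -0.70 (gemcitabine), and protein-coding genes with a mean signal above 6 had -0.21, -0.98 and -0.45.

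**Figure D3:**
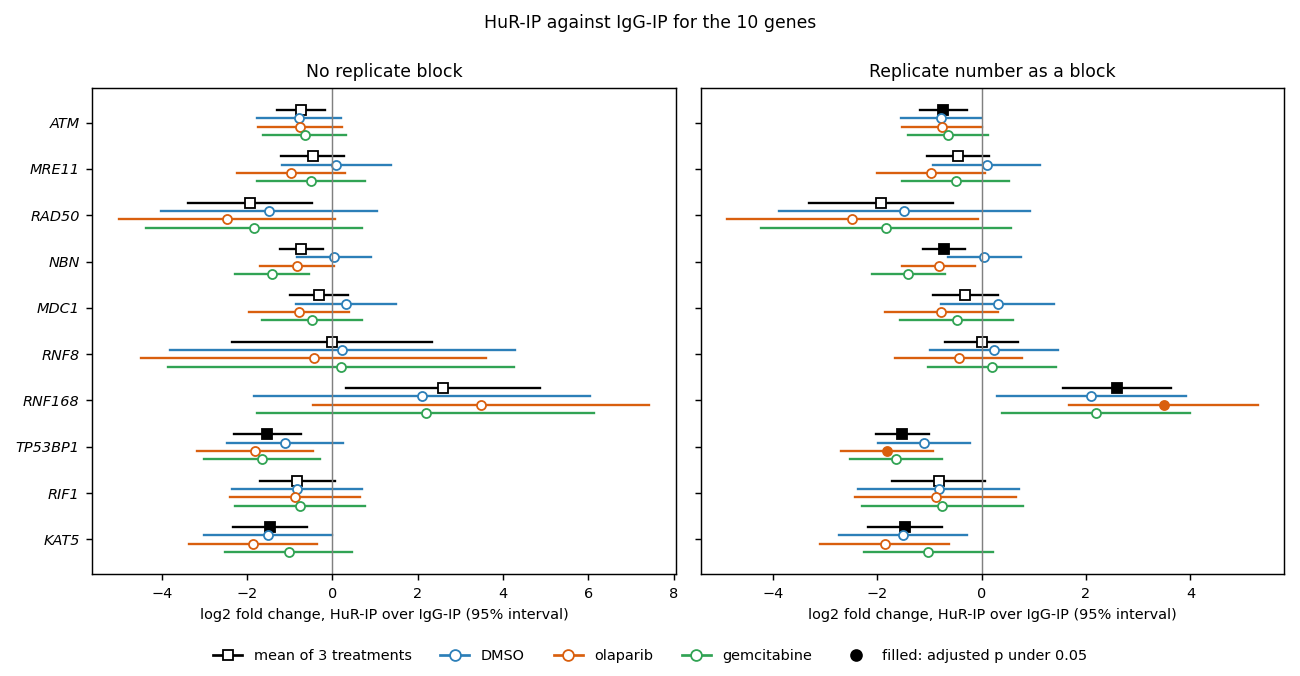
Log2 fold change of HuR-IP over IgG-IP (x axis) with its 95% interval for the 10 genes (y axis) in the mean of the 3 treatments and in each treatment, without (left) and with (right) a block for the replicate number. Filled symbols passed limma's adjusted p under 0.05, which TP53BP1 and KAT5 did on the left and ATM, NBN, RNF168, TP53BP1 and KAT5 did in the mean on the right.

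Neither drug moved the gap between HuR-IP and IgG-IP of any of the 10 genes past the adjusted threshold, and no gene of the 33458 passed in these comparisons. Both drugs were set against the same DMSO arrays. At an unadjusted p under 0.05, none of the 10 differed between olaparib and DMSO (1.48% of all genes were lower and 1.17% higher), and NBN was lower in gemcitabine than in DMSO (0.625% of all genes). For NBN, the antibodies differed by 0.05 in DMSO and by -1.40 in gemcitabine, so the change was -1.45 (SE 0.54, limma's adjusted p = 1.00), at signals inside the background range. The shift of RNF168 was 1.38 (SE 2.44, 95% interval -4.20 to 6.97) under olaparib and 0.09 (SE 2.44) under gemcitabine, and that of TP53BP1 was -0.70 (SE 0.84, 95% interval -2.62 to 1.21) and -0.54 (SE 0.84). These intervals span changes in either direction.

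On HuR-IP arrays alone, no member passed the adjusted threshold against DMSO. At an unadjusted p under 0.05, MDC1 was lower in olaparib (4.06% of all genes were), by -1.26 (SE 0.51, limma's adjusted p = 0.844). In gemcitabine, MDC1 and NBN were lower at that level (1.4% of all genes), by -1.56 and -1.18 (adjusted p = 1.00 for both). On IgG-IP arrays alone MDC1 differed by -0.17 in olaparib and -0.76 in gemcitabine, and NBN by 0.37 and 0.27, none at an unadjusted p under 0.05, where 0.75% and 1.29% of all genes were lower.

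The partners of these genes were read over the 3 treatments together. The ubiquitin branch, with 21 of 22 listed genes measured, held 2 higher and 5 lower genes and a median log2 fold change of -0.72, where 2.39% of all genes were higher and 7.51% lower, and 7.53% and 18.5% of the brighter protein-coding genes. Cyclic loess turned these counts to 6 higher and 3 lower, where 5.46% of all genes were higher and 4.96% lower. BARD1, the BRCA1 partner and one of the genes displayed from these arrays, was 2.92 above IgG-IP (limma's adjusted p = 0.00566). USP3, a deubiquitinase acting on histone H2A, was 2.10 above it (adjusted p = 0.0389). Lower were BABAM2, a subunit of the BRCA1-A complex (-1.25, adjusted p = 0.0168), and USP16, another H2A deubiquitinase (-2.84, adjusted p = 0.0188). TRIP12, a ligase that restrains RNF168 levels, was lower too (-1.74, adjusted p = 0.0220), as were OTUB1, an inhibitor of this ubiquitin signal (-2.20, adjusted p = 0.0312), and HERC2, which assists RNF8 (-1.30, adjusted p = 0.0468). Some of these calls depended on the scaling, the cluster or single arrays. Of 12 single omissions, the call held in 12 for BARD1, 8 for BABAM2, 7 for USP16, 6 for OTUB1, 5 for TRIP12 and 2 for HERC2. USP3 was not read gene by gene under the alternatives. With the mean of clusters, BARD1 (adjusted p = 0.00557) was the only gene of the list called higher, so the USP3 call was lost there. It was also lost in at least 1 single omission. Whether it held under the other alternatives is not known here. BABAM2 had -0.45 with cyclic loess (adjusted p = 0.167) and also lost its call with centring and the trended prior (0.0526 and 0.0972), HERC2 lost its call with cyclic loess, quantile normalization and centring (0.114, 0.0897 and 0.153), and TRIP12 had -0.60 with the mean of its clusters (0.0867). UBE2N, the conjugating enzyme that works with RNF8 and is another of the study's displayed genes, had a value of 4.66 that did not pass (adjusted p = 0.0619), and was named here after its value was seen. UBE2N passed with the block (adjusted p = 0.00283), with cyclic loess (0.0355), quantile normalization (0.0397) and centring (0.0101), with the trended prior (0.0283) and among genes above 6 (0.0193). It did not pass with the mean of clusters (0.0620), and it passed in only 2 of 12 single omissions. Without the 2 HuR-IP arrays picked for lying close to IgG-IP, its value was 6.66.

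In the list of 53BP1 and RIF1 effectors, 13 of 15 genes were measured, 3 were lower, none was higher and the median was -0.46. In the model without a block, 7.51% of all genes were lower and 2.39% higher, and 18.5% and 7.53% of the brighter protein-coding genes. The lower ones were MAD2L2, the REV7 subunit of shieldin (-2.77, adjusted p = 0.00217), STN1 of the CST complex (-1.99, adjusted p = 0.0174), and TOPBP1, a scaffold for checkpoint proteins (-1.31, adjusted p = 0.0436). The TOPBP1 call was lost with cyclic loess (-0.52, adjusted p = 0.227), quantile normalization (0.0679), centring (0.0947) and the trended prior (0.104), and held in 3 of 12 single omissions. DYNLL1, a light chain that binds 53BP1, had -0.76 (limma's adjusted p = 0.110) and stood at 0.04 with cyclic loess. Among the TIP60 complex subunits, 16 of 17 were measured and 1 was lower, with a median of -1.08. RUVBL1, an ATPase of the complex, was lower (-2.64, adjusted p = 0.00744), while TRRAP (-1.54), BRD8 (-2.19) and YEATS4 (-1.63) had adjusted p of 0.0743, 0.0787 and 0.0816. The block took this list to 2 higher and 8 lower genes, with TRRAP (adjusted p = 0.0438), BRD8 (0.0479) and YEATS4 (0.00276) among the lower. With the mean of its clusters and no block, YEATS4 had -0.60 (limma's adjusted p = 0.191). Of all genes, 6.62% were higher and 11.6% lower with the block.

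Of the MRN, ATM and resection partners, 10 of 12 were measured and none passed, with a median of -0.57. Of all genes, 2.39% were higher and 7.51% lower in this model without a block. TTI1, which helps to fold ATM, had -1.79 (limma's adjusted p = 0.0801) and its partner TTI2 had 2.42 (adjusted p = 0.105). The helicase BLM stood at -1.26 (adjusted p = 0.0885) and the nuclease EXO1 at -1.31 (adjusted p = 0.135). With the block, 2 genes of this list were higher, TTI2 among them (adjusted p = 0.0348), and none was lower. The shares of all genes with the block were 6.62% higher and 11.6% lower.

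**Figure D4:**
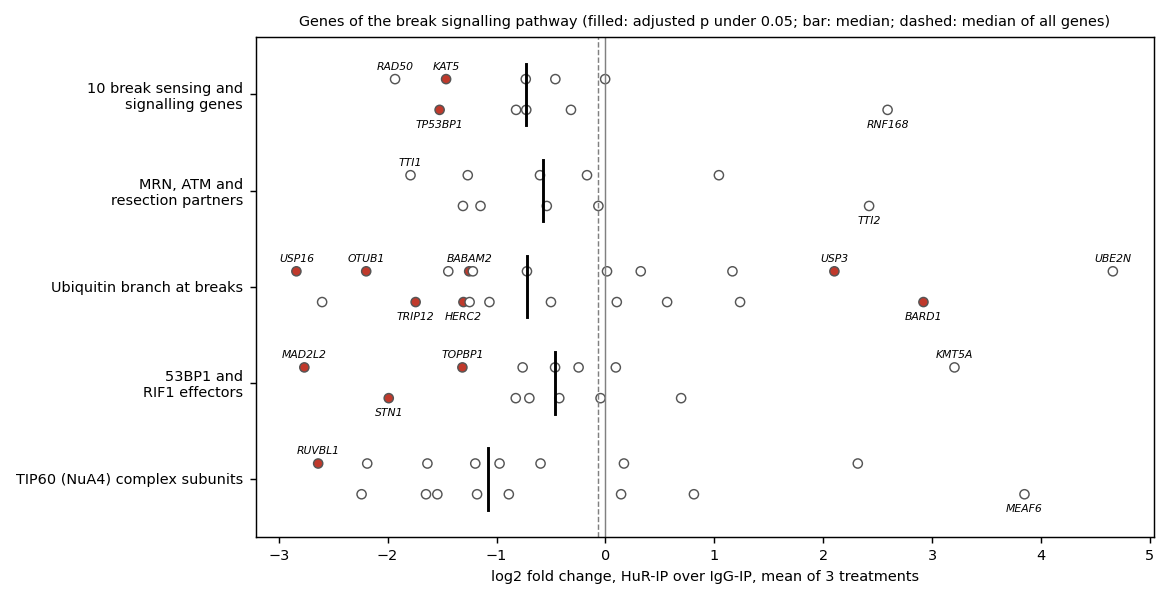
Log2 fold change of HuR-IP over IgG-IP, averaged over the treatments (x axis), for each measured gene of the 10 and of 4 lists of partners (y axis, points offset for legibility), with black bars for list medians and a dashed line for the median of all genes. Filled points passed limma's adjusted p under 0.05, and each list holds genes on both sides of 0, with medians between -1.08 and -0.46.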

How the data were processed

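RNA from HuR-IP and IgG-IP of MiaPaCa-2 cytoplasm was measured on 12 Clariom D arrays. Normalization was done by the authors with Affymetrix Expression Console 1.4, and RMA is named in the processing notes of the submitters. The deposited values are log2 signals per transcript cluster and were used as deposited. The summarization settings and genome build are not given in the sources used here, so no coordinates are printed. There are 138745 features in the table, 186 of them controls. By the platform annotation, 36176 clusters carried 1 gene symbol, 1119 carried several and 101264 were left unnamed. Symbols were updated through the RefSeq gene table of GRCh38.p14, through the gene ID (25516 clusters), the symbol (9899) or an older symbol (623), while 138 kept the name of the annotation. The brightest cluster of each gene was tested, without a filter on dim genes, which left 33458 genes.

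The 6 groups were fitted with limma 3.58.1 under R 4.3.3, with tables read by the data.table package (version 1.17.8). The fit had 6 residual degrees of freedom and 2.42 from the prior, and moderated p-values were adjusted over all genes by the Benjamini-Hochberg method. The model was tested on simulated data. The number of arrays limits the precision. Arrays correlated with each other at 0.88 to 0.99, and none shared most of its values with another. In each of the 15 pairs of groups, same-numbered arrays deviated together from their group means, with correlations of 0.15 to 0.81, and between HuR-IP and IgG-IP of 0.20 (DMSO), 0.51 (olaparib) and 0.19 (gemcitabine). The pairing by array number comes from these values and the numbers in the labels, which do not say what a number stands for. The model has no block, and the blocked value stands beside a named gene where it changed the call. Exceptions are USP3 and the marker and control genes, which were not read gene by gene under the alternatives.

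The members, lists and tests were chosen with earlier results of these data known. Genes named are the 10 members, from each list the 4 genes whose moderated statistic over the 3 treatments was furthest from 0, and for the members with the highest and lowest fold change the 3 most correlated protein-coding genes with a mean signal above 6. Other genes named were chosen after their values were seen. Where a listed gene had no cluster with its symbol alone, it was not analysed here. Alternatives were the replicate block, cyclic loess, quantile normalization, centring each array on the median of genes above 6, a trended and robust prior, genes above 6 only, the mean of a gene's clusters, only the compared arrays, and leaving out each array. The omission of the 2 HuR-IP arrays close to IgG-IP (number 2 of DMSO and of gemcitabine) was added after seeing the data. Because these arrays were picked for that closeness, their omission tends to widen the gaps by construction. A comparison with protein length was planned and not run. No sequences are printed, because RNA target sites were not analysed here.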

Additional observations from a re-analysis of the deposited data

Results flagged for a closer look

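The gap between HuR-IP and IgG-IP for NBN was the 1 such gap among the members that differed between a drug and DMSO at an unadjusted p under 0.05. It was 0.05 in DMSO and -1.40 in gemcitabine, a change of -1.45 (SE 0.54, limma's adjusted p = 1.00 over all genes). Both gemcitabine HuR-IP arrays, at 3.93 and 4.25, were below all other HuR-IP arrays of NBN, and no HuR-IP array exceeded the 95th percentile of its background features. A dimmer NBN cluster differed by -0.91 in DMSO and -1.21 in gemcitabine. The part of background signal in this difference was not tested.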

How the results depend on the processing

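Over the 3 treatments, 0 members were higher and 2 lower. With the replicate block the counts were 1 and 4, and with centring 1 and 0. Calls without the 2 HuR-IP arrays close to IgG-IP, number 2 of DMSO and of gemcitabine, are not counted in this section. Those arrays were picked for that closeness, so added calls would be built into the choice. Cyclic loess left 0 lower, quantile normalization 1 (KAT5) and the trended and robust prior 1 (KAT5). In olaparib, the block gave 1 higher and 1 lower member, where 3.18% of all genes were higher and 6.82% lower. The compared arrays alone gave 1 lower member, where 4.98% of all genes were lower. Single omissions gave 0 to 1 higher and 0 to 3 lower members in the mean, and 0 to 0 in each treatment and each drug comparison. KAT5 had adjusted p of 0.0560 with cyclic loess and 0.0550 with centring, and TP53BP1 0.0651 with the trended and robust prior. Over all genes, 800 were higher and 2512 lower, against 2214 and 3887 in the blocked model, 1828 and 1660 after cyclic loess, 1544 and 2060 with quantile normalization, and 2290 and 1726 with centring.

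The shares of all genes higher and lower in the mean were 2.39% and 7.51% in the main model and 6.62% and 11.6% with the block. They were 5.46% and 4.96% with cyclic loess, 4.61% and 6.16% with quantile normalization, and 6.84% and 5.16% with centring. The trended and robust prior gave 2.68% and 7.08%, genes above 6 gave 11.4% and 25.7%, and the mean of clusters 2.29% and 7.42%. Among the lists in the mean, the MRN and ATM partners (0 higher, 0 lower) had 2 higher with the block, 1 with centring, and 1 higher and 1 lower among genes above 6. The ubiquitin branch (2 higher, 5 lower) had 5 higher with the block, 6 higher and 3 lower with cyclic loess and 5 higher with quantile normalization. It had 4 higher with centring, 4 among genes above 6 and 1 with the mean of clusters. The 53BP1 and RIF1 effectors (0 higher, 3 lower) had 1 higher with the block, cyclic loess, centring and genes above 6. The TIP60 subunits (0 higher, 1 lower) had 2 higher and 8 lower with the block, and 1 higher with cyclic loess, quantile normalization and the trended and robust prior. They had 2 higher with centring, and 1 higher and 6 lower among genes above 6. Counts of each list also moved over single omissions.

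Signs turned with cyclic loess for MDC1 (0.063), RNF8 (0.79), DYNLL1 (0.041) and H2AX (0.20, from -0.60) in the mean, for ATM (0.25), RNF8 (0.66) and RIF1 (0.11) in olaparib, and for ATM in gemcitabine (0.00434). They turned with quantile normalization for RNF8 in the mean (0.22) and in olaparib (0.033), and with centring for MDC1 (0.13) and RNF8 (0.45) in the mean and RNF8 in olaparib (0.31). NBN in DMSO turned to -0.43 with the mean of its clusters and to -0.25 without those 2 arrays, a setting that took RNF8 in the mean to 0.67. Over single omissions, DMSO values ranged from -0.30 to 0.40 for NBN, -0.50 to 0.68 for MRE11, -0.16 to 0.78 for MDC1, -1.67 to 0.026 for RIF1 and -1.22 to 1.69 for RNF8. Gemcitabine values ranged from -2.05 to 0.011 for KAT5, -1.01 to 0.046 for MDC1, -1.0 to 0.000745 for MRE11, -0.041 to 4.42 for RNF168 and -1.72 to 2.12 for RNF8. RNF8 ranged from -2.06 to 1.18 in olaparib and from -0.64 to 0.64 in the mean. The causes were not tested. Settings that leave 1 array in a group take its spread from the other groups. The signals of NBN, KAT5 and MRE11 near the background limit what their differences show.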
